A study of Drosophila melanogaster with 4 samples.

Results

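Antisense RNA genes are noncoding genes annotated on the strand opposite to another gene, whose name in FlyBase starts with asRNA:. The tables of estimated counts held 17697 genes, of which 490 were antisense RNA genes. The 167 described here were those with an estimated count of at least 40 summed over the 4 libraries, leaving out asRNA:CR43465. The members were thus chosen by their level over both groups and not by the difference between the groups, although a gene raised or lowered in 1 group reaches the sum more easily than a gene that is low in both. Of the antisense genes in the tables, 104 were listed at 0 in every library.

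Cells often transcribe both strands of a locus. An antisense RNA may start near the promoter of its sense gene and run away from it or into it, may start inside the sense gene, or may meet it at the 3′ end. Some antisense RNAs are known to influence the sense gene through transcription of the shared DNA, through chromatin or through pairing of the RNAs, and for most of those annotated in Drosophila no role is known. Heat shock stops the transcription of many genes and activates the heat shock genes through the factor Hsf. Failure to end transcription at gene ends, so that RNA continues into the next gene, is also known in heat-shocked mammalian cells.

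The study sequenced poly(A) RNA of S2 cells, a wild-type line established from late Drosophila melanogaster embryos and grown at 27 °C. Untreated cells gave 2 libraries, and cells held for 1 h at 37 °C followed by 1 h of recovery at 27 °C gave the other 2. The heat shock replicates were lysed separately, and the labels do not say so of the untreated ones, so p-values measure the spread between these libraries, which may be partly technical. All libraries come from 1 cultured line and hold no other genotype, and fewer cells expressing a gene cannot be told apart from less RNA per cell.

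Library totals lay between 10221418 and 11988483 estimated counts, and the members took from 0.0880% to 0.102% of them. Of the hemocyte (blood cell) markers, srp stood at 188 to 273 CPM (counts scaled to a common library size with TMM factors, which even out differences in composition) and Pvr at 949 to 1140. ush stood at 305 to 454 CPM, Col4a1 at 69.7 to 87.2 and vkg at 42.65 to 54.45, while Hml and Pxn lay between 0.997 and 3.20. He was at 0 in every library, and NimC1, eater and Sr-CI were below 1 CPM, so the plasmatocyte markers were present only in part. Among markers of other cell types, the neuronal elav stood at 64.6 to 81.0 CPM, brp at 4.80 to 7.87 and the germ line bam at 7.84 to 9.38. The neuronal nSyb reached 2.89 CPM, and vas and the markers of muscle and fat body were at or below 1.28 CPM. Among 23 genes of the heat shock response, 22 were higher after heat shock at an adjusted p under 0.05 in edgeR's quasi-likelihood test.

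The members were spread over all the large chromosome arms, with 24 on 2L, 32 on 2R, 41 on 3L, 42 on 3R, 22 on X and 6 on chromosome 4. Coordinates are of release 6 of the genome (dm6). Each member was set beside its sense partner, the gene on the other strand that overlaps the most of its span. This partner was a protein-coding gene for 164 members and a noncoding gene for 1, while 2 members had no opposite gene in the annotation used. Ent1 and side-IV were each the partner of 2 members, so the partners were 163 genes. Of the members, 69 lay inside the partner's span, 55 overlapped it head-to-head (5′ ends together), 24 tail-to-tail (3′ ends together) and 17 contained it.

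In 164 members, exons of the antisense gene overlapped exons of the partner, and in 1 the overlap was with an intron alone. The median member had 1147 exon bases (range 328 to 7622), of which a median of 68.7% also belonged to exons of other genes. In 10 members no exon base was outside the exons of other genes. The library kit is not named as keeping strand, and the strand setting of the count estimate is not stated, so reads from shared exons could not be assigned to a strand with certainty. The estimate shares such reads between the genes by a model, and the tables give for each count a posterior standard deviation (posterior SD, in reads), the uncertainty of that sharing.

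The posterior SD was at most 0.5 times the count in every library for 130 members, and it was larger in at least 1 library for 37. For 17 members it reached or passed the count itself in a library, and for 8 members it stayed under 1 read in all of them. The posterior SD of the median member was 3.92% of its count where up to 25% of the exon bases were shared (22 members), 7.40% from 25% to 50% (34 members), 15.7% from 50% to 75% (45 members) and 22.2% above that (66 members). In 114 pairs, the antisense gene and its partner had posterior SDs within 5% of each other in all libraries, as they have when reads are exchanged only within the pair. An estimate that kept the strands apart would not exchange reads between opposite genes, so in these pairs shared exons were counted without strand. Levels and changes of antisense genes given below are such estimates, and a read in a shared exon does not show its strand. The posterior SD measures only this sharing and no difference between cultures.

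**Figure D1:**
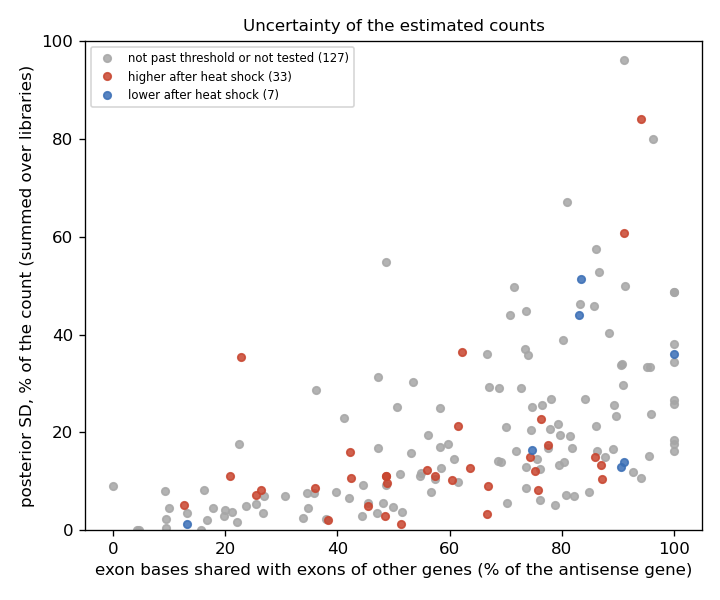
Posterior SD as a percent of the estimated count (vertical axis, both summed over the 4 libraries) against the percent of exon bases shared with exons of other genes (horizontal axis) for the 167 members; red points are the 33 called higher after heat shock, blue points the 7 called lower and grey points the rest. The uncertainty widens towards the right, where the median was 22.2%, and red points occur along the whole axis.

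By these estimates, antisense genes were mostly at lower levels than their partners. The median member had 5.28 TPM (a level per gene length, scaled to the same sum in every library), and this was a median of 23.9% of the partner's TPM over 163 members. The antisense TPM was below the partner's in every library for 118 members and above it in every library for 20. The summed count ran from 40.13 to 4348.35 with a median of 123.58, so most members rest on few reads.

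The most abundant member was asRNA:CR46194 (chr2R:12169558-12171706, minus strand, 1 exon), which meets SmD3, a core protein of the spliceosome, tail-to-tail. It had 48.1 and 47.8 CPM in untreated cells and 187 and 147 CPM after heat shock, so that the groups lay far apart. Its log2 fold change was 1.80 ± 0.11 (SE; edgeR adjusted p = 8.32e-06), while that of SmD3 was 0.40 ± 0.07 (adjusted p = 0.00299). On the same strand the gene starts where Oda, the ornithine decarboxylase antizyme, ends, and the genes overlap or adjoin. Oda rose by 0.93 on the log2 scale (edgeR adjusted p = 9.35e-06), and its part in the counts of asRNA:CR46194 was not tested. The posterior SD of asRNA:CR46194 was 16.3 to 28.3 reads beside counts of 586 to 1876.

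The next in mean CPM was asRNA:CR45139 (chr2R:3943429-3949757, plus strand, 7 exons), head-to-head with uex, which encodes a magnesium transporter of the CNNM family. It had 38.6 and 39.6 CPM untreated and 70.8 and 77.1 CPM after heat shock. The rise was 0.92 ± 0.07 on the log2 scale (edgeR adjusted p = 3.57e-05), with no overlap of the groups. The partner uex went from 294 and 290 to 270 and 247 CPM, a difference of -0.17 ± 0.07 that did not pass the test (adjusted p = 0.0655). Posterior SDs were 6.36 to 7.83 reads beside counts of 483 to 710.

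Another 4 abundant members were lower or showed no called difference. asRNA:CR44031 and asRNA:CR44029, both on chromosome 4, fell and are described with the falls. asRNA:CR45202 (chr2R:8897820-8898275) lies inside Sec31, a subunit of the COPII coat of vesicles leaving the endoplasmic reticulum, and had 23.7 and 24.6 CPM untreated and 26.9 and 21.1 CPM after heat shock. The groups overlapped, and the difference was under 0.01 in size on the log2 scale with an SE of 0.12. asRNA:CR44083 (chr2L:13284927-13286538), head-to-head with Drep4, a DNA fragmentation factor, had 24.8 and 26.3 CPM untreated and 22.9 and 20.0 CPM after heat shock. Its difference of -0.25 ± 0.10 did not pass the test (edgeR adjusted p = 0.0864), although the groups did not overlap.

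The comparison of untreated with heat-shocked cells asked which antisense RNAs changed with the stress. Of 163 members that passed the filter on low counts, 33 rose and 7 fell at an adjusted p under 0.05 (edgeR, adjusted over all 8784 genes tested). The 33 were 20.2% of the members tested, beside 21.4% of all genes called higher, and the 7 were 4.29%, beside 18.6% of all genes called lower. With a change of at least 2-fold, 24 members were higher, 14.7% of those tested beside 9.37% of all genes, and 3 were lower, 1.84% beside 1.46%. Without a fold limit the share that rose was thus near the background and the share that fell was below it, whereas at 2-fold the share that rose was above the background and the share that fell was near it. Among the 128 tested members whose posterior SD was at most 0.5 times the count in every library, 16 rose and 0 fell at least 2-fold. Genes high in 1 group also enter the part and pass the filter more easily, so these shares are a description only.

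The median log2 fold change of the members was 0.23, beside -0.02 over all genes. Their sense partners had a median of -0.004, with 34 of 149 tested higher and 31 lower. Long noncoding RNA genes with the same minimum count had a median of 0.41, with 90 of 236 higher and 7 lower. Both heat shock libraries were above both untreated ones in 62 of the 163 tested members, beside 34.4% of all genes. They were below both in 27 of the 163, beside 37.8% of all genes, and in 74 the groups overlapped. The median SE was 0.28 for the members and 0.11 over all genes.

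The split of the calls depends on how libraries were scaled. With library totals alone the members split into 21 higher and 50 lower, and with totals that leave out the heat shock genes into 29 higher and 18 lower. On log2(TPM + 1) the split was 22 to 48 and on log2(TPM + 0.1) it was 20 to 46, both tested with limma. Relative to TMM scaling, totals alone shifted the median of all genes by -0.53 and the totals without heat shock genes by -0.16, and the members' median of 0.23 became -0.30 and 0.06. The members' median stood 0.25 above that of all genes with TMM, 0.26 above it with totals alone and 0.25 without the heat shock genes, but only 0.10 above it with DESeq2 and 0.10 without the low-count filter, both over a larger set of genes. Changes below are those relative to TMM scaling. DESeq2 called 16 higher, and without heat shock replicate 1 the count of falls in edgeR was 17.

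Of the 33 rises, 23 had at least 10 counts in all libraries and 10 had that many only in the heat shock libraries. In 13 of the 33 the sense partner rose as well, in 4 it fell, in 12 it was not called and in 4 it was not tested. Over all members, 34 of the 149 partners tested rose and 31 fell. By layout, 11 lay inside the partner (of 69 tested), 11 were head-to-head (of 53), 6 were tail-to-tail (of 22) and 5 contained it (of 17).

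The largest rises were in pairs where both genes went from almost no reads to a measurable level. asRNA:CR43159 (chr3L:15520318-15521554), head-to-head with yellow-k of the yellow gene family, had 0 and 0.245 CPM untreated and 7.97 and 8.58 CPM after heat shock. With only 3.33 estimated counts in untreated cells, the ratio of the groups was 68.6, with a 95% counting interval of 23.0 to 336. The posterior SDs in untreated cells were 2.66 reads beside a count of 0 and 0.98 beside 3.33. This interval, like the counting intervals below, leaves the posterior SD out of account. yellow-k itself went from 1.04 and 0.326 to 13.0 and 15.1 CPM, a rise of 4.33 ± 0.31 on the log2 scale (edgeR adjusted p = 2.27e-05). The gene 156 bases upstream on the strand of asRNA:CR43159, CG7945, rose by 1.06.

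asRNA:CR44703 (chr2R:21068260-21069445) overlaps Cht9, of the chitinase family, head-to-head. It had 0.160 and 0 CPM untreated and 2.79 and 3.43 CPM after heat shock, and Cht9 had 0 and 0.0816 CPM against 2.19 and 2.06 CPM. The counting ratio was 38.9 (95% interval 10.3 to 329) for asRNA:CR44703 and 51.4 (8.71 to 2084) for Cht9, both from 1 or 2 untreated reads. Neither pair showed a called difference in the antisense to sense ratio, with changes of 0.75 ± 0.80 and 0.32 ± 0.74 on the log2 scale (limma adjusted p = 0.56 and 0.798).

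asRNA:CR43481 (chr3L:9378160-9381119) lies head-to-head with Hsp67Ba, a small heat shock protein gene of the 67B cluster. It is the only member whose partner is in the list of heat shock genes used. It had 1.76 and 1.96 CPM untreated and 25.6 and 24.5 CPM after heat shock, a rise of 3.75 ± 0.16 on the log2 scale (edgeR adjusted p = 6.64e-07). Hsp67Ba went from 1.04 and 1.79 to 7.38 and 11.7 CPM, a rise of 2.73 ± 0.33. In TPM, asRNA:CR43481 (13.3 and 12.6 after heat shock) was above Hsp67Ba (6.43 and 10.17) in both heat shock libraries, whereas in untreated cells it had 1.32 and 1.43 TPM beside 1.32 and 2.21. The ratio change of 1.02 ± 0.38 did not pass the test (limma adjusted p = 0.107). CG4461, which lies 1866 bases upstream on the strand of asRNA:CR43481, rose by 3.47 (edgeR adjusted p = 0.000162).

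asRNA:CR44054 (chrX:11139608-11141238) overlaps CG15199 tail-to-tail. It had 0.560 and 0.652 CPM untreated and 6.58 and 6.98 CPM after heat shock, a rise of 3.46 ± 0.27 (edgeR adjusted p = 4.04e-05). CG15199 was at 0.240 and 0 CPM untreated and 1.60 and 1.72 CPM after heat shock, and its counting ratio was 14.1 (95% interval 4.40 to 71.8). CDK2AP1, which overlaps or adjoins the 5′ end of asRNA:CR44054 on the same strand, was not called (-0.08).

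In other pairs the antisense gene rose more than its partner. asRNA:CR45815 (chr3L:1648628-1649699), head-to-head with CG13920, had 0.0800 and 0.326 CPM untreated and 3.39 and 4.80 CPM after heat shock. Its log2 fold change of 4.26 ± 0.49 (edgeR adjusted p = 0.000328) stood beside 1.17 ± 0.20 for CG13920. asRNA:CR45804 (chr3L:9693821-9694705) lies inside Prps, the phosphoribosyl pyrophosphate synthetase, and had 0.640 and 0.0816 CPM untreated and 3.69 and 5.26 CPM after heat shock. The rise was 3.57 ± 0.52 (edgeR adjusted p = 0.0011; 5.56 without untreated replicate 1), while Prps, with 113 to 192 TPM beside 0.23 to 9.29 TPM of the antisense gene, rose by 1.15 ± 0.08. In both pairs the heat shock libraries lay above the untreated ones for both genes.

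The last 2 of the 8 largest rises rest on weaker counts. asRNA:CR46354 (chr3R:13459671-13466106) overlaps side-IV, of the sidestep family of immunoglobulin proteins, tail-to-tail, and had 0.240 and 0.816 CPM against 3.09 and 2.40 CPM (2.37 ± 0.46, edgeR adjusted p = 0.00432). side-IV, at or below 0.801 CPM in all libraries, was not tested. asRNA:CR17025, the other antisense gene of side-IV, rose by 0.75 from 3.60 and 3.67 to 5.98 and 6.29 CPM. asRNA:CR46138 (chr3R:4434624-4436101), inside CG1074, had estimated counts of 8.58, 0, 18.9 and 14.0 in untreated and heat shock libraries with posterior SDs of 8.51, 7.73, 8.55 and 10.1 reads, so its level was hardly resolved. The call (2.24 ± 0.72, edgeR adjusted p = 0.0373) was lost without untreated replicate 2, where the change was 1.27 (adjusted p = 0.072), and under DESeq2 (adjusted p = 0.147).

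**Figure D2:**
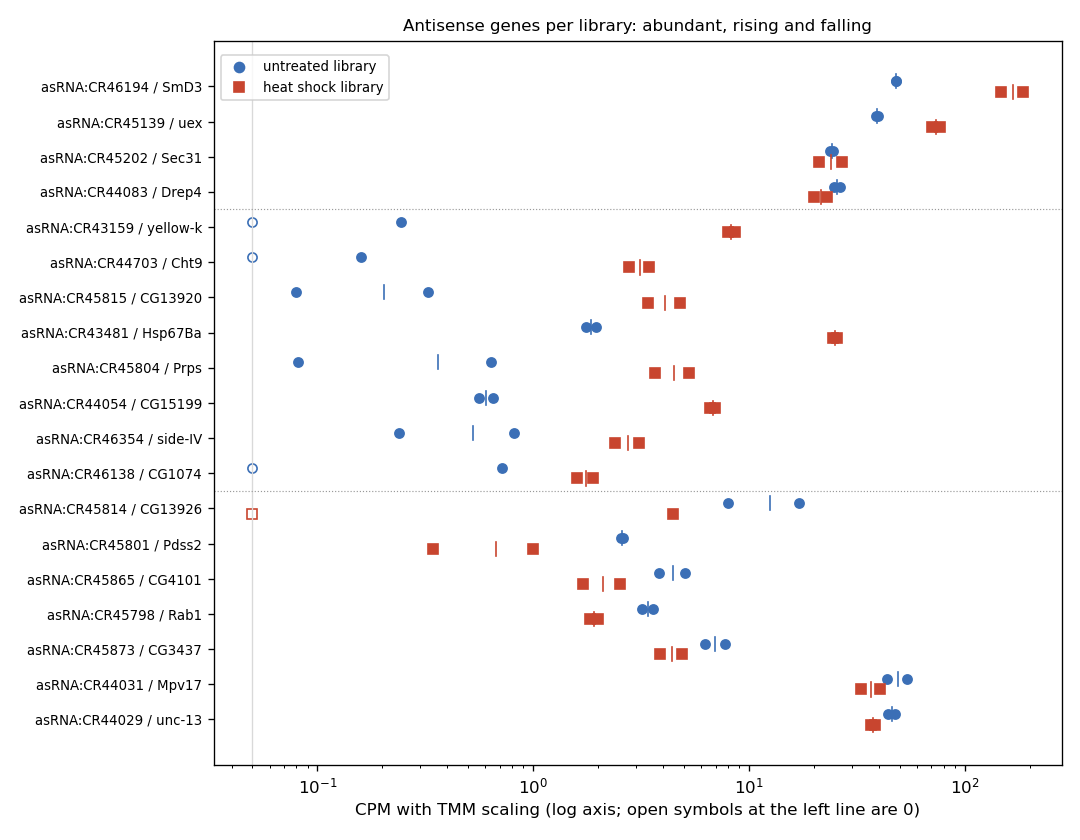
CPM with TMM scaling on a log axis for 4 of the 6 most abundant members (top), the 8 largest rises (middle) and the 7 falls, of which asRNA:CR44031 and asRNA:CR44029 are also among the most abundant (bottom), each named with its sense partner. Blue circles are untreated and red squares heat shock libraries, open symbols are values of 0, and vertical ticks mark the group mean where no value is 0; asRNA:CR46194 lies at 187 and 147 CPM after heat shock and at 48.1 and 47.8 CPM before.

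Some rises lay opposite partners that were not called or fell. Those given here were picked for the known roles of their partners after their values had been seen. asRNA:CR44047 (chr3R:20827095-20828212), inside Adss, which makes adenylosuccinate in AMP synthesis, had 1.44 and 1.63 CPM untreated and 5.28 and 5.38 CPM after heat shock. Its rise of 1.79 ± 0.24 (edgeR adjusted p = 0.000735) stood beside 0.15 ± 0.06 for Adss, and 12.6% of its exon bases were shared. The rest lay in introns of Adss, and whether unspliced Adss RNA was counted there was not tested. asRNA:CR43889 (chr3L:19909365-19910203), inside Mi-2, a nucleosome remodelling ATPase, had 2.32 and 2.94 CPM against 7.37 and 7.89 CPM and rose by 1.53 ± 0.21, while Mi-2 fell by 0.19 (adjusted p = 0.0366).

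asRNA:CR45889 (chr3L:16042395-16042968) lies inside Diap1, the inhibitor of apoptosis, and had 2.56 and 3.26 CPM untreated and 4.29 and 5.72 CPM after heat shock. It rose by 0.77 ± 0.25 (edgeR adjusted p = 0.0365), while Diap1 fell by 0.31 ± 0.08 (adjusted p = 0.0144). asRNA:CR46135 (chr3R:5613280-5616308), which contains Atu, rose by 0.85 ± 0.17 from 8.32 and 6.44 to 12.5 and 14.3 CPM, while Atu fell by 0.78 ± 0.09 from 38.0 and 36.7 to 20.7 and 23.0 CPM. In each of these pairs the groups did not overlap for the antisense gene. With asRNA:CR43889 and asRNA:CR46138, they are the 4 members that rose opposite a partner that fell. Whether a shift of shared reads within a pair had a part in these opposite changes was not tested.

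In a further locus on 2R, neighbouring antisense genes rose together with their partners. asRNA:CR43468 (chr2R:12875164-12877280) contains Lfg, of the Lifeguard family of membrane proteins, and went from 6.32 and 4.97 to 25.6 and 20.1 CPM, a rise of 2.02 ± 0.17 (edgeR adjusted p = 6.5e-05). Lfg went from 2.00 and 3.34 to 10.3 and 11.0 CPM, a rise of 1.99 ± 0.23. asRNA:CR43469, which ends 76 bases upstream on the same strand and contains Balat, rose by 0.59 ± 0.17, from 6.24 and 8.07 to 11.5 and 10.1 CPM. Balat, with 1.12 and 0 CPM untreated and 4.39 and 2.52 CPM after heat shock, was called higher as well (edgeR adjusted p = 0.0204). Both antisense genes contain their partner, and whether shared reads had a part in these joint rises was not tested.

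The 7 falls ran from -0.29 to -2.57 on the log2 scale, beside 0.51 to 5.96 for the rises, and in 6 of them the partner was not called lower. DESeq2 called none of the 7 (0 falls at the adjusted threshold, 4 at an unadjusted p under 0.05). asRNA:CR45814 (chr3L:1617485-1618190), head-to-head with CG13926, had estimated counts of 100.5 and 208 before heat shock and of 0 and 39.1 after it. The posterior SDs were 42.9, 59.5, 45.2 and 31.2 reads, so a count of 0 there is no evidence of absence. CPM of antisense and sense gene together was 29.3 and 31.5 untreated and 36.2 and 27.6 after heat shock, which overlap, although each gene alone was called (-2.57 ± 0.73 and 0.74 ± 0.22 on the log2 scale, edgeR adjusted p = 0.023 and 0.0294). The size of the fall rests on single libraries, since it was -1.48 without heat shock replicate 1 and -10.18 without heat shock replicate 2, where the only heat shock count left is 0 and the fitted value is no bound.

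asRNA:CR45801 (chr3L:21028959-21029701) lies inside Pdss2, an enzyme of coenzyme Q side-chain synthesis, and had 2.56 and 2.61 CPM untreated and 0.997 and 0.343 CPM after heat shock. It fell by 1.89 ± 0.41 on the log2 scale (edgeR adjusted p = 0.0077), with posterior SDs of 6.10 to 10.9 reads beside counts of 3.01 to 32.2, and by 2.88 without heat shock replicate 1. asRNA:CR45865 (chr3L:16612500-16612827), the shortest member, lies inside CG4101 with all its exon bases shared. It went from 3.84 and 5.06 to 1.69 and 2.52 CPM (-1.09 ± 0.28, adjusted p = 0.0165). Its posterior SD was over 0.5 times the count in at least 1 library. Together with CG4101 it had 13.43 and 15.41 CPM untreated and 14.65 and 13.27 CPM after heat shock, which overlap. Whether shared reads shifted within this pair was not tested. asRNA:CR45873 (chr3L:9456339-9457296), tail-to-tail with CG3437, went from 6.24 and 7.75 to 4.88 and 3.89 CPM (-0.66 ± 0.21, adjusted p = 0.0342), a call lost without untreated replicate 2 (adjusted p = 0.13) and without heat shock replicate 2 (0.0874). In these 3 pairs the partner was not called, with differences of -0.20, 0.25 and 0.42.

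asRNA:CR45798 (chr3R:21266255-21267794) lies inside Rab1, the GTPase of transport from the endoplasmic reticulum to the Golgi. It had 3.60 and 3.18 CPM untreated and 1.99 and 1.83 CPM after heat shock (-0.82 ± 0.26, edgeR adjusted p = 0.0352). Rab1 was at 1164 and 1168 CPM untreated and 1280 and 1269 CPM after heat shock, a difference of 0.13 ± 0.06 that was not called. The fall of asRNA:CR45798 lost its call when any of the libraries was left out (adjusted p from 0.0529 to 0.151).

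The remaining falls were on chromosome 4, where 5 members were tested and none rose in the edgeR test (2 fell, and the changes ran from -0.57 to 0.12). These 5 are too few to compare with the 21.4% of all genes called higher and 18.6% called lower. asRNA:CR44031 (chr4:1027863-1029359), tail-to-tail with Mpv17, a protein of the mitochondrial inner membrane, went from 54.0 and 43.6 to 32.9 and 40.4 CPM (-0.42 ± 0.13, edgeR adjusted p = 0.0276). Its TPM was above that of Mpv17 in every library, with 186 and 146 against 10.0 and 29.7 TPM in untreated cells. Without heat shock replicate 1 the change was -0.28 and the call was lost (adjusted p = 0.0869), and without untreated replicate 1 it was -0.27. asRNA:CR44029 (chr4:879374-884752), inside unc-13, which primes synaptic vesicles for release in neurons, went from 47.7 and 44.0 to 38.2 and 36.6 CPM (-0.29 ± 0.08, adjusted p = 0.0166), and unc-13 fell with it by 0.23 ± 0.06. That call was lost without untreated replicate 1 (adjusted p = 0.0514) and without heat shock replicate 2 (adjusted p = 0.0854).

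Whether the antisense gene changed differently from its partner was tested directly on the log2 ratio of the CPM of antisense and sense gene in each library (prior count 2), in which the scaling of the library cancels. With limma over all 1830 pairs of overlapping genes on opposite strands, 29 of the 148 member pairs tested passed an adjusted p of 0.05, which is 19.6% beside 22.4% of all pairs. Among pairs without an antisense RNA gene, 22.6% passed, so the share of member pairs was near the background. The ratio of antisense to sense was higher after heat shock in 22 pairs, by 0.65 to 4.30 on the log2 scale, and lower in 7, by -3.04 to -0.73. Members inside their partner were 13 of the 22 and 6 of the 7, among 67 such pairs tested.

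In 18 of the 22 pairs with a higher ratio the antisense gene itself was called higher, and in 7 the partner was called lower. The pairs with SmD3 (1.38 ± 0.15), Adss (1.53 ± 0.14), Mi-2 (1.68 ± 0.18), uex (1.09 ± 0.11) and Atu (1.62 ± 0.20) had limma adjusted p-values from 0.00103 to 0.00266. asRNA:CR45620 (chrX:7959274-7960898), inside sws, the fly neuropathy target esterase, was not called by itself (0.64 ± 0.26, from 1.92 and 2.12 to 3.09 and 3.20 CPM, edgeR adjusted p = 0.0803). As sws fell by 0.63 ± 0.07, the ratio rose by 1.22 ± 0.21 (limma adjusted p = 0.00921).

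The largest ratio change, in the pair of asRNA:CR43463 (chr2L:14359285-14361303) and Pgant35A, an enzyme that starts O-linked glycosylation, belongs to a pair that the counts hardly resolve. All 2019 bases of this antisense gene lie in Pgant35A exons. It had 5.68 and 3.10 CPM untreated and 3.89 and 6.06 CPM after heat shock, groups that overlap, and Pgant35A had 2.40 and 3.67 CPM untreated and was listed at 0 in both heat shock libraries. The posterior SDs of both genes were the same, 18.7, 17.1, 8.04 and 9.89 reads, so the 0 of Pgant35A is not evidence of absence. Together the pair had 8.08 and 6.77 CPM untreated and 3.89 and 6.06 CPM after heat shock. The ratio changed by 4.30 ± 0.61 (limma adjusted p = 0.00469). Against a floor of 3 counts over both heat shock libraries Pgant35A was at least 19.0-fold lower, a bound that leaves the posterior SD out of account.

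The ratio also rose in the pairs asRNA:CR46138 and CG1074 (3.27 ± 0.75, limma adjusted p = 0.0244), asRNA:CR45815 and CG13920 (2.40 ± 0.48, adjusted p = 0.0146) and asRNA:CR45804 and Prps (2.14 ± 0.56, adjusted p = 0.0377). Each of these 3 calls was lost when either heat shock library was left out, with adjusted p from 0.0604 to 0.154. Without untreated replicate 2 the ratio change was 2.11 for asRNA:CR46138 and 1.23 for asRNA:CR45804.

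In 5 of the 7 pairs whose ratio fell, the sense gene rose while the antisense gene was not called. asRNA:CR43957 (chr4:56497-63124) lies head-to-head with ci, the transcription factor of Hedgehog signalling, and shares only 4.34% of its exon bases. It had 11.0 and 13.1 CPM untreated and 11.8 and 13.5 CPM after heat shock, and its posterior SD was 0 in every library. ci went from 1.36 and 1.39 to 6.18 and 5.38 CPM, a rise of 2.07 ± 0.24 (edgeR adjusted p = 0.000388), and the ratio fell by 1.86 ± 0.29 on the log2 scale (limma adjusted p = 0.00677). In TPM, asRNA:CR43957 stayed above ci, with 22.4 and 24.6 against 1.83 and 1.59 after heat shock.

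asRNA:CR45683 (chr2L:13437895-13442410) lies inside CG42784 with no exon base in common with it. It had 2.16 and 1.79 CPM untreated and 2.59 and 2.29 CPM after heat shock, with posterior SDs of at most 1.25 reads, while CG42784 went from 0.400 and 0.245 to 4.98 and 4.69 CPM. The ratio fell by 3.04 ± 0.43 (limma adjusted p = 0.00468), from above 0 on the log2 scale in untreated cells to below 0 after heat shock. The exons of asRNA:CR45683 lie in introns of CG42784, and whether unspliced CG42784 RNA was counted there was not tested.

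asRNA:CR46033 (chr3L:16663903-16664913), inside Galphaf, a G protein alpha subunit, had 3.84 and 2.69 CPM untreated and 3.39 and 3.09 CPM after heat shock. Galphaf went from 3.04 and 2.45 to 11.1 and 9.27 CPM, and the ratio fell by 1.82 ± 0.31 (limma adjusted p = 0.00937, and 0.0626 without heat shock replicate 1). asRNA:CR42860 (chr3L:2088166-2089626) lies inside sls, the giant titin-like protein of muscle, which is also expressed in these cells at 33.7 and 32.6 CPM untreated and 111 and 110 CPM after heat shock. asRNA:CR42860 had 1.20 and 1.71 CPM untreated and 1.10 and 1.49 CPM after heat shock, and the ratio fell by 1.88 ± 0.28 (limma adjusted p = 0.00599), a call that was lost on TPM (adjusted p = 0.134). For these 2 antisense genes and for asRNA:CR43957 the groups overlapped. The fifth such pair was asRNA:CR45129, inside the neuronal and immune receptor gene Dscam1. Dscam1 rose by 0.23 ± 0.07, and the ratio changed by -0.73 ± 0.19 (limma adjusted p = 0.0383), which is more than the rise of Dscam1 alone.

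In the remaining 2 pairs the antisense gene fell and the partner was not called. The ratio changed by -0.90 ± 0.12 for asRNA:CR45798 and Rab1 (limma adjusted p = 0.00446), a call kept without any of the libraries. For asRNA:CR45865 and CG4101 it changed by -1.27 ± 0.36 (adjusted p = 0.0478), and that call was lost without untreated replicate 1 (0.0608), without untreated replicate 2 (0.147), without heat shock replicate 1 (0.189) and with a prior count of 0.5 (0.0606).

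**Figure D3:**
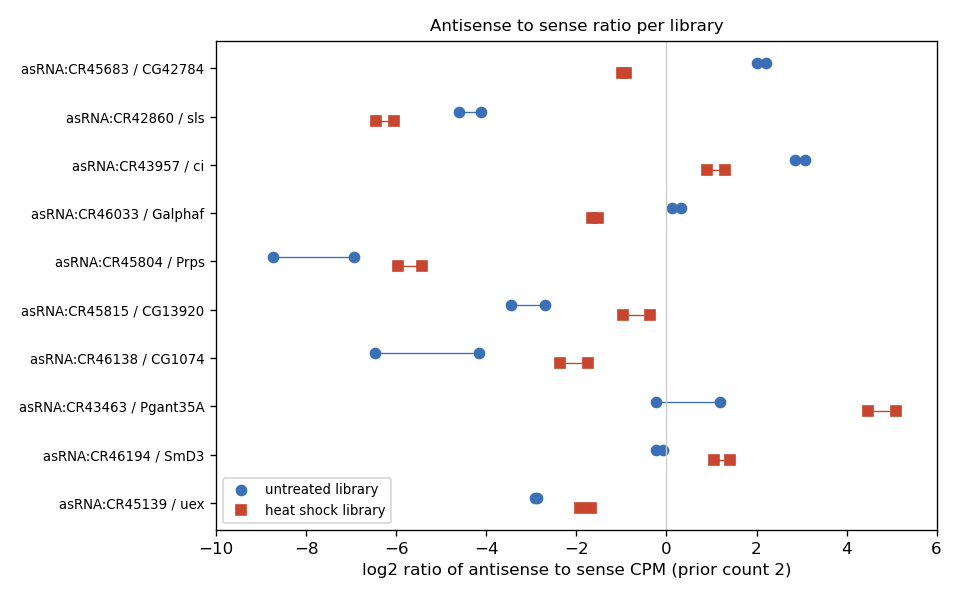
Log2 ratio of antisense to sense CPM per library (prior count 2) for the 8 pairs with the largest called ratio change and for the pairs of the 2 most abundant members; blue circles are untreated and red squares heat shock libraries, and a thin line joins the libraries of a group. The ratio lies lower after heat shock in the upper 4 pairs and higher in the others, and the groups do not overlap in any of these pairs.

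**Figure D4:**
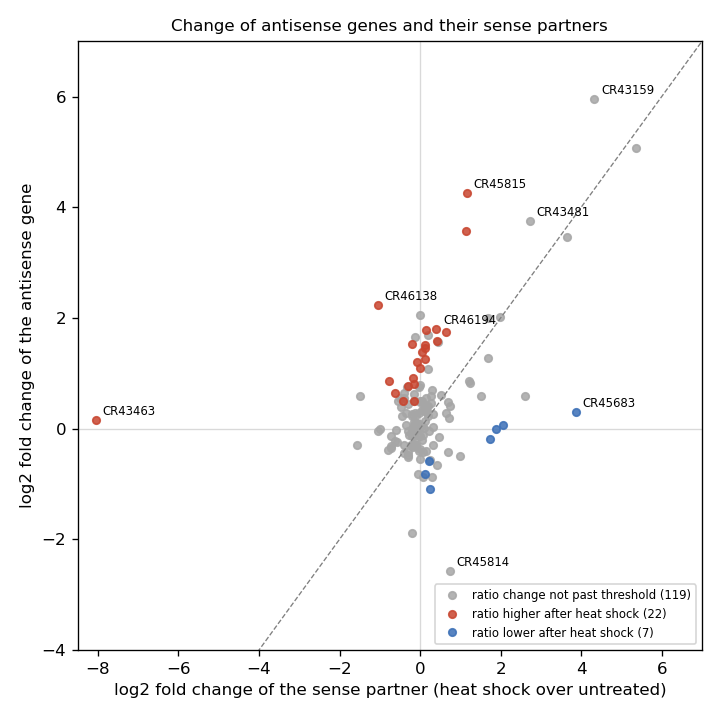
Log2 fold change (heat shock over untreated, edgeR) of each antisense gene against that of its sense partner for the 148 pairs tested; the dashed line marks equal change, red points are the 22 pairs whose ratio rose, blue points the 7 whose ratio fell and grey points the other 119. asRNA:CR43159 lies at 5.96 and asRNA:CR43481 at 3.75 on the vertical axis with partners that rose as well, and asRNA:CR43463 lies at the far left, where the fitted value of Pgant35A is no bound because that gene was listed at 0 after heat shock.

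The nearest upstream gene on the same strand lay within 1000 bases of 47 of the 167 members, and it overlapped or adjoined 6 of them. The 47 included 11 of the 33 that rose. In 5 of these 11 the upstream gene was called higher too, where 21.4% of all genes were called higher. Besides Oda and CG7945 they included MtnA, a metallothionein gene 713 bases upstream of asRNA:CR31514 (chr3R:9779519-9782693). asRNA:CR31514 went from 1.60 and 1.30 to 5.48 and 6.29 CPM (2.01 ± 0.25, edgeR adjusted p = 0.00048), while MtnA rose by 0.59. Whether reads from these upstream genes were counted in the antisense genes was not tested, and upstream genes of members that did not rise were not compared.

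At the limit of membership, the lowest members were asRNA:CR46138, asRNA:CR44030 (opposite fuss, summed from counts of 15.5, 7.42, 8.42 and 8.81) and asRNA:CR44062 (opposite bond, from 16, 9, 2 and 14). Just outside were asRNA:CR44873 with 39, asRNA:CR45925 with 38.97 and asRNA:CR45827 with 38.85 summed counts. Of the members, 4 did not pass the filter on low counts: asRNA:CR44030, asRNA:CR45213, asRNA:CR44019 and asRNA:CR45142. No member was at 0 in both libraries of a group. Of the 123 tested members without a call, 13 had an unadjusted p under 0.05 and 4 differed by at least 2-fold, so at this depth a difference of that size could be missed.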

How the data were processed

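Per the labels, poly(A) RNA of S2 cells was sequenced with 50-base reads in 4 libraries, grouped by the recorded stress. The submitters' processing notes name Trimmomatic 0.36, STAR 2.6.1c and RSEM 1.3.1. The deposited tables give, for each gene, an expected count (estimated, need not be whole), TPM and a posterior SD, as RSEM writes them. The study's methods describe counting with featureCounts and testing with DESeq2, and do not describe these tables. Authors' pooled tables and FPKM values were not used here.

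Symbols, coordinates and overlaps came from the Ensembl annotation of the same assembly (BDGP6), of a later release than the study's. Of 413 antisense genes with a single transcript, 413 had the same length in the tables. Of 17697 genes, 17569 matched a symbol. No genome or promoter sequence was used here. The members, lists and tests were chosen with earlier results of these data known.

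Expected counts were rounded and tested with edgeR 4.0.16 (filterByExpr, TMM, quasi-likelihood test) in R 4.3.3, with Benjamini-Hochberg adjustment over all genes and a threshold of 0.05. The log2 ratio of antisense to sense CPM was tested with limma 3.58.1 (empirical Bayes with a trend) over all opposite-strand pairs. An SE is that of the log2 value, derived from the test statistic. With 2 libraries a group, no SD is given and each library's value is printed. Intervals of count ratios (95%, exact) cover counting error only. Estimated counts summed to 10221418 and 10354706 (untreated) and to 11988483 and 10602190 (heat shock), with TMM factors of 1.224, 1.184, 0.837 and 0.8245. Scripts were tested on simulated data. Results were recomputed with DESeq2 1.42.0, with voom, with other scalings, filters, prior counts, thresholds and partners, TPM deposited by the authors with pseudocounts of 1 and 0.1, a replicate block and leaving out each library.

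Named genes were the 6 members of highest mean CPM, the 8 largest rises and up to 8 falls called, up to 8 largest ratio changes called, members opposite a listed heat shock gene, and the 3 genes on either side of the count limit. Any other was named after its values were seen.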

Additional observations from a re-analysis of the deposited data

How the results depend on the processing

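The count of rises was 16 with DESeq2, 21 with library totals alone, 20 on log2(TPM + 0.1) and 20 at an adjusted p under 0.01. Within smaller sets it was 20 of the 100 tested members with at least 100 summed counts. It was 17 of the 70 tested with at least 100 bases outside other genes, beside 33 of 163 in the main test. The count of falls was 0 with DESeq2, 50 with totals alone and 18 with totals without heat shock genes. It was 48 on log2(TPM + 1), 46 on log2(TPM + 0.1) and 1 at an adjusted p under 0.01. Within smaller sets it was 4 of the 128 tested members with a posterior SD at most 0.5 times the count. It was 1 of the 70 tested with at least 100 bases outside other genes, beside 7 of 163 in the main test. Ratio calls were 14 at an adjusted p under 0.01. They were 17 of 90 pairs at 100 summed counts and 9 of 60 with 100 bases outside other genes, beside 29 of 148 in the main test. Leaving out each library gave 28 to 41 rises, 7 to 17 falls (17 without heat shock replicate 1) and 22 to 36 ratio calls. Of the 33 rises, 21 remained called with totals alone and 16 with DESeq2, and no member called under both TMM and another scaling was called in opposite directions. In the smaller sets only the members counted differ, and at 0.01 only the threshold. The cause of the other shifts was not tested.

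Same-numbered libraries did not deviate together (r = -0.0956 over 8784 genes, and -0.342 over the 5733 genes of at least 10 CPM), and 2 pairs cannot show that numbers pair them. With the replicate block there were 39 rises, 8 falls and 28 ratio calls, and with the crossed pairing, chosen after seeing the data, 40, 9 and 39.

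Values that changed sign were of genes near 0 or of ratios without a call. On the log2 scale asRNA:CR43957 was -0.47 with totals alone, -0.0977 without heat shock genes and -0.41 and -0.43 on TPM with pseudocounts of 1 and 0.1. In that order asRNA:CR43463 was -0.37, -0.00268, -0.25 and -0.30. asRNA:CR45683 was -0.23 with totals alone and -0.0915 and -0.18 on TPM. asRNA:CR45202 was 0.0156 with RLE and 0.0186 when every library had to hold 10 counts, and asRNA:CR46033 was 0.0166 with voom, 0.00926 with RLE, 0.0117 under that same filter and 0.00271 with the crossed pairing. The ratio change of asRNA:CR44029 was 0.0342 on TPM, and with a prior count of 0.5 those of asRNA:CR44054 and asRNA:CR44062 were -0.50 and -0.0807. Leaving out each library gave log2 fold changes of -0.20 to 0.15 for asRNA:CR45202, -0.0685 to 0.20 for asRNA:CR43957, -0.21 to 0.66 for asRNA:CR43463, -0.25 to 0.26 for asRNA:CR46033, -0.42 to 0.0892 for asRNA:CR42860 and -2.28 to 0.66 for asRNA:CR44062. The ratio changes were then -2.05 to 0.0279 for asRNA:CR44031, -0.50 to 1.94 for asRNA:CR43159, -0.22 to 1.12 for asRNA:CR44054, -0.37 to 1.01 for asRNA:CR44703 and -0.99 to 1.14 for asRNA:CR44062. Among values of single genes under the alternatives that keep every library, 391 kept direction and call, 24 lost the call, 12 gained it and 20 changed sign. These alternatives include the threshold of 0.01 on the main fit, under which no value can change sign or gain a call. With a library left out, 150 kept both, 20 lost the call, 8 gained it and 18 changed sign.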

Other observations

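Below the limit of 40 summed counts, 322 further antisense RNA genes of the tables were left out of the members, and 104 of them were listed at 0 in every library. Another 52 were at 0 in both untreated libraries and above 0 after heat shock, and 36 were at 0 in both heat shock libraries and above 0 before. At these counts a value of 0 is no evidence of absence. Only 8 of the 322 passed the filter on low counts, which a gene high in 1 group passes more easily, and of these 3 were called higher and 1 lower in the edgeR test. The changes on the log2 scale were 2.71 for asRNA:CR45134, 2.96 for asRNA:CR45520, 4.70 for asRNA:CR44108 and -1.57 for asRNA:CR44027.

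The TPM of 20 members was above that of the sense partner in every library. In the pairs of asRNA:CR44031 with Mpv17, asRNA:CR43957 with ci and asRNA:CR43469 with Balat, the antisense gene had the higher estimated TPM, the last with a mean of 7.19 TPM beside 1.65 TPM over the 4 libraries. The ratio of asRNA:CR44031 to Mpv17 was loosely estimated, with a log2 change of -1.01 ± 0.80 after heat shock (limma adjusted p = 0.42).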
